A study of Arabidopsis thaliana with 39 samples.

Results

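The 47 genes described here are the nuclear genes of Arabidopsis thaliana for the light-harvesting antennae, the 2 photosystems and Rubisco, picked by locus identifier from the 32678 genes of the count tables. They comprise 14 LHCB genes (the antenna of photosystem II), 6 LHCA genes (the antenna of photosystem I), 10 PSB genes (photosystem II subunits), 12 PSA genes (photosystem I subunits), and 5 Rubisco genes, namely the small subunit genes RBCS1A, RBCS1B, RBCS2B and RBCS3B and the activase gene RCA. RNA came from whole seedlings, 5 days old, grown on solid medium, in 36 poly(A)-enriched libraries. The genotypes were wild type (WT), the mutant glyI2, and 2 lines whose labels read 35S::GLYI2 35S::GLYII4 #1 (OE1) and #5 (OE5), in which a constitutive viral promoter is named for both glyoxalase genes. Each genotype was left untreated (mock), given 100 mM NaCl for 12 h or given 200 µM methylglyoxal (MG, a reactive by-product of glycolysis that glyoxalases remove) for 12 h, which makes 12 groups of 3 libraries. No duration is given for mock, so whether mock and treated seedlings were harvested at the same time is not known here. Each OE line is a single line, and glyI2 is a single mutant.

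In plants the photosystems are built from subunits of 2 genomes. The reaction-centre proteins and the large subunit of Rubisco are encoded in the chloroplast, whereas the antenna proteins, the outer subunits and the Rubisco small subunit are encoded in the nucleus and imported. Nuclear antenna genes are textbook targets of light, of chloroplast signals and of the circadian clock, and the promoter of CAB2 is a widely used clock reporter in Arabidopsis. CCA1 and LHY are clock transcription factors with a morning peak, and TOC1 is one with an evening peak.

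The libraries held between 21024878 and 22383131 gene counts. All 279 chloroplast and mitochondrial genes in the tables were at 0, so the chloroplast-encoded partners of these subunits were not measured. GLYI2 (taken here as AT1G08110) stood between 55.2 and 76.4 CPM (counts scaled to a common library total) in WT mock, between 6.24 and 9.42 in glyI2 mock, between 16.1 and 38.7 in OE1 mock and between 39.9 and 59.6 in OE5 mock. GLYII4 (AT2G43430) stood between 9.55 and 13.5 in WT mock, between 21.3 and 40.0 in OE1 mock and between 26.1 and 41.0 in OE5 mock. After MG it stood between 7.41 and 14.2 in WT, between 216 and 304 in OE1 and between 184 and 290 in OE5. The level of GLYII4 in the 2 lines thus differed between mock and MG. By counts at these loci the OE labels were therefore borne out by GLYII4 and not by GLYI2. The sources used here do not say whether transgene transcripts would be counted there. The lines are called here the lines labelled OE1 and OE5. No label named separate cultures, days or batches, so a p-value here reflects how far libraries of a group scatter, and that scatter may be technical. Within whole seedlings, fewer cells of a type and less RNA per cell cannot be told apart.

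Before any comparison, 7 libraries have to be set apart. In glyI2, OE1 and OE5 replicate 3 of both mock and NaCl, and in WT replicate 3 of NaCl, had CCA1 between −1.91 and 1.07 log2 CPM (scaled by TMM), against 4.23 to 6.31 in the other 29 libraries. LHY stood between 1.49 and 3.06 in the 7 libraries and between 6.10 and 7.27 in the 29. TOC1 went the other way, at 5.86 to 6.15 in the 7 and 4.08 to 4.91 in the 29. Replicate 3 of WT mock and of the 4 MG groups was among the 29. The 7 are called below the CCA1-low libraries, the threshold being 2.5 log2 CPM of CCA1, and results are given with and without them. They were treated as libraries that stand apart and never as a group of their own to be tested.

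**Figure D1:**
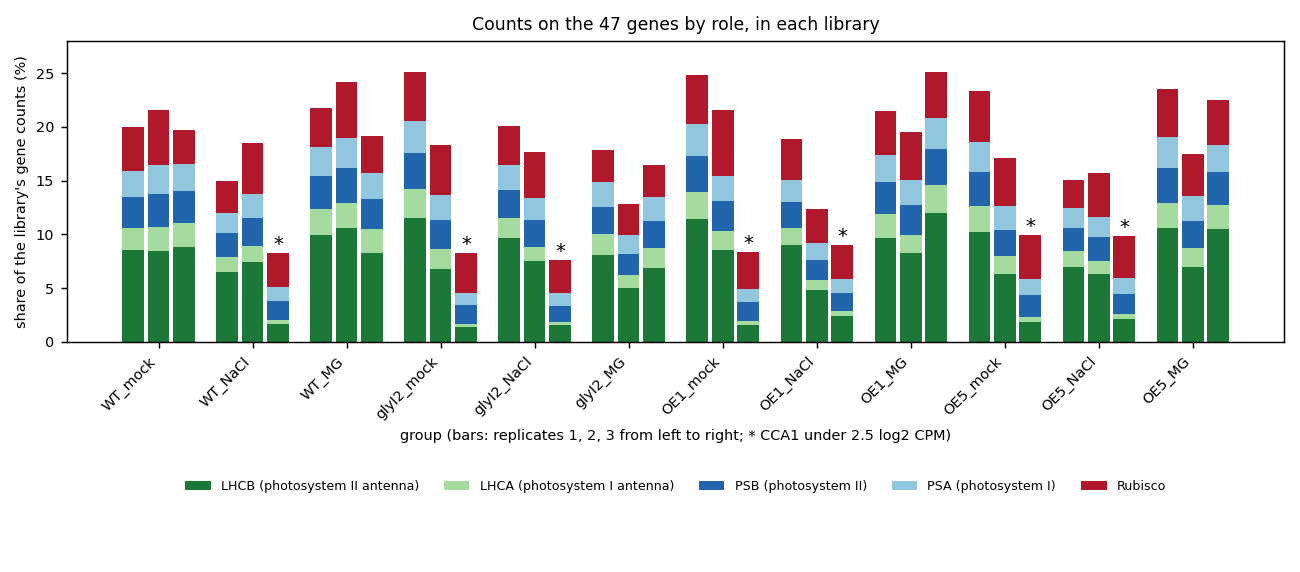
Share of each library's gene counts that fell on the 47 genes, in percent, stacked by role, for the 3 replicates of each group. Asterisks mark the 7 CCA1-low libraries, where the 47 genes together held 7.60 to 9.97% of the counts against 12.3 to 25.2% in the other 29.

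In the 29 other libraries the 47 genes took between 12.3% and 25.2% of all gene counts, with a median of 19.5%. LHCB genes alone held a median of 8.50% there, Rubisco genes 4.13%, PSB genes 2.75%, PSA genes 2.37% and LHCA genes 1.89%. In the CCA1-low libraries the 47 genes took 7.60 to 9.97%. The antenna shares were low in them, with LHCB at 1.37 to 2.45% and LHCA at 0.341 to 0.475%, below the lowest of the 29 libraries (4.82% and 0.955%). The Rubisco share in the 7, at 3.05 to 4.13%, lay within the range of the 29 (2.58 to 6.15%).

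Levels between genes were compared by the authors' FPKM, which divides by gene length. In WT mock the highest of the 47 was CAB1 (AT1G29930, an LHCB1 gene of the major trimeric antenna) at 21561 ± 255 FPKM (SD, n = 3), and the lowest was LHCB4.3 (AT2G40100, a minor antenna protein of the CP29 type) at 30.7 ± 9.90. RBCS1A (AT1G67090) was the highest Rubisco gene at 18858 ± 4343 and RBCS1B (AT5G38430) the lowest at 1501 ± 445. LHCA4 (AT3G47470), a subunit of the photosystem I antenna belt, led the LHCA genes at 5434 ± 215, and LHCA5 (AT1G45474) was lowest at 124 ± 3.41. LHCA5 and LHCA6 (159 ± 10.3) stood far below LHCA1 to LHCA4, and both are known for joining photosystem I to the chloroplast NDH complex rather than for the antenna belt. Among photosystem II subunits PSBR (AT1G79040) led at 7043 ± 558, and PSBS (AT1G44575), the sensor of excess light, was lowest at 1318 ± 103. Among photosystem I subunits PSAG (AT1G55670) led at 3941 ± 608, and PSAH1 (AT3G16140), one of a pair of PSAH genes, was lowest at 837 ± 55.8.

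Replicate 3 was set against the mean of replicates 1 and 2 in each of the 12 groups, on the log2 CPM scale. In the 7 groups whose replicate 3 is CCA1-low, 37 of the 47 genes were lower in replicate 3 in all 7, and 1, LHCB4.3, was higher in all 7. Shares over all genes are not given here, so these counts do not set the 47 apart from other genes. The size of the gap differed between the roles. The median gap of a gene over the 7 groups ran from −6.63 to 0.83 in LHCB, from −3.56 to −0.02 in LHCA, from −2.31 to 0 in PSA, from −1.03 to 0.02 in PSB and from −0.73 to −0.24 in Rubisco. In the other 5 groups the median gap over all 47 genes ranged from −0.51 to 0.43.

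**Figure D2:**
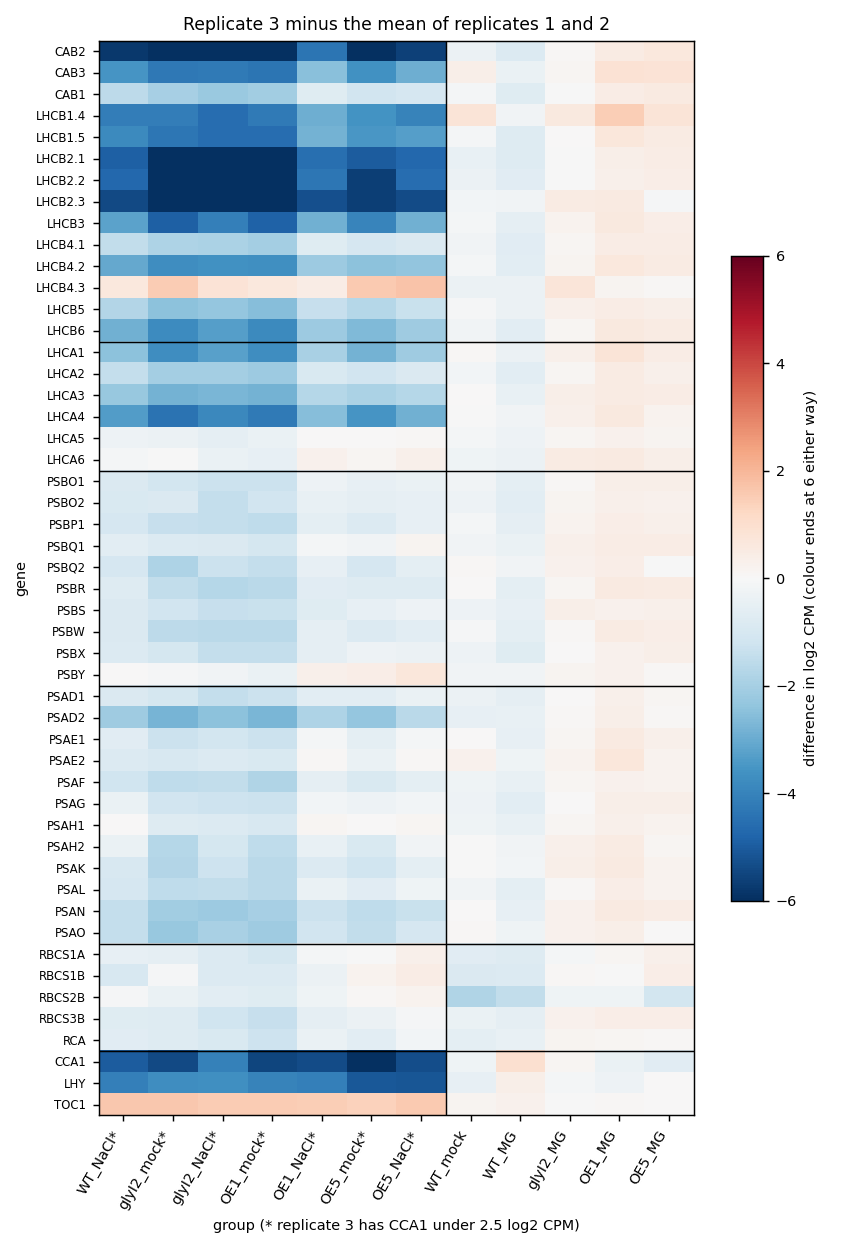
Replicate 3 minus the mean of replicates 1 and 2, in log2 CPM, for the 47 genes (rows, ruled off by role) and for CCA1, LHY and TOC1, in each of the 12 groups. Columns with an asterisk have a CCA1-low replicate 3. Most antenna rows are deep blue there, LHCB4.3 is red, and LHCA5, LHCA6, PSBY, PSAH1 and the Rubisco rows are pale.

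CAB2 (AT1G29920) had the deepest gap. In OE1 mock it stood at 12068 and 8755 CPM in replicates 1 and 2 and at 64.0 in replicate 3. In WT mock the same gene stood at 8320, 6811 and 5899 CPM in the 3 replicates. Its gap ranged from −7.69 to −4.36 over the 7 groups and from −0.84 to 0.63 over the other 5.

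The LHCB2 genes, which encode the antenna proteins phosphorylated in state transitions, behaved like CAB2. LHCB2.3 (AT3G27690) stood at 1337 and 738 CPM in glyI2 mock replicates 1 and 2 and at 6.18 in replicate 3. The gaps of LHCB2.1, LHCB2.2 and LHCB2.3 in the 7 groups lay between −7.31 and −4.33. LHCB3, also part of the major trimers, had gaps of −4.88 to −2.88, and LHCB6, a minor antenna protein of land plants, had gaps of −3.80 to −2.13.

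CAB1, although an immediate neighbour of CAB2 on the chromosome and the most abundant of the 47, had gaps of −2.24 to −0.75. It stood at 31233 and 15515 CPM in OE5 mock replicates 1 and 2 and at 9985 in replicate 3. Replicates 1 and 2 of that group thus differed from each other by more than replicate 3 did from replicate 2. Over all 12 groups, replicates 1 and 2 differed by up to 1.08 in CAB1 and by up to 1.32 in CAB2.

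Copies of one family diverged in the CCA1-low libraries in other cases too. LHCB4.1 had gaps of −2.06 to −0.71, LHCB4.2 gaps of −3.71 to −2.18 and LHCB4.3 gaps of 0.45 to 1.70, so that the 3 CP29 genes differed from each other in size and sign. In glyI2 mock LHCB4.3 stood at 33.7 and 34.5 CPM in replicates 1 and 2 and at 99.5 in replicate 3. In WT NaCl its 3 values were 27.2, 72.9 and 67.9, so the replicate 3 value there was not the highest. PSAD1 had gaps of −1.42 to −0.40 and PSAD2 gaps of −2.77 to −1.62, although both encode the ferredoxin-docking subunit of photosystem I. PSBO1 and PSBO2, both for the manganese-stabilising protein of the oxygen-evolving complex, had like gaps of −1.29 to −0.30 and −1.41 to −0.46.

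LHCA5 and LHCA6 did not share the gap of the belt genes. Their values over the 7 groups ran from −0.53 to 0.09 and from −0.51 to 0.29, against −4.41 to −2.56 for LHCA4. PSBY, a small photosystem II subunit, ran from −0.38 to 0.66 and PSAH1 from −0.94 to 0.14. By range, 22 of the 47 genes were lower in every CCA1-low library than in any of the 29, 12 of them LHCB, 4 LHCA, 5 PSA and 1 PSB, with no Rubisco gene among them. How many of all genes were apart in this way is not given here, so the count is not read as particular to the 47.

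Other genes of the chloroplast followed the antenna only in part. Of 24 genes of chlorophyll synthesis, 9 were lower and 4 higher in replicate 3 in all 7 groups, and the list's median gap ranged from −0.29 to 0.12 across them. Of 16 light and chloroplast regulators 6 were lower and 4 higher in all 7 groups, and the median over the list was −0.06. GLK2, a transcription factor for photosynthetic genes, had gaps of −2.23 to −0.97, while GNC and CGA1, also regulators of chloroplast genes, had gaps of 0.27 to 1.67 and 0.31 to 1.71. By median gap PIF4, PIF5 and SIG5 of the same list fell further than GLK2, with gaps of −5.11 to −2.29, −2.81 to −2.20 and −3.05 to −1.71. CCA1 itself had gaps of −7.45 to −4.06. ASN1, an asparagine synthetase gene induced by darkness and low sugar, had gaps of −5.73 to −2.02, while its replicates 1 and 2 differed by up to 3.40. It was the 1 gene of 7 in the list of dark response and chlorophyll breakdown that was lower in all 7 groups, 0 were higher, and the median over that list was 0.18. GLK2, GNC, CGA1, PIF4, PIF5, SIG5 and ASN1 were picked out after their values were seen. Of 11 root cell markers 2 were lower and 1 higher in all 7 groups. What made these 7 libraries differ was not tested.

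The first comparison asked what 100 mM NaCl did to the 47 genes in each genotype. All 47 passed edgeR's expression filter. With all libraries, none of the 47 passed edgeR's quasi-likelihood test at a Benjamini-Hochberg adjusted p under 0.05 in any genotype. Over all 20748 genes tested, that test called 7.12% in WT, 7.05% in glyI2, 5.33% in the line labelled OE1 and 5.48% in the line labelled OE5. At an unadjusted p under 0.05, 3 of the 47 were lower after NaCl in WT, 0 in glyI2, 6 in OE1 and 3 in OE5. The shares just given are for adjusted calls. At the unadjusted threshold, shares of all genes are given below only for the fit without the CCA1-low libraries. DESeq2 called 0, 0, 2 and 0 of the 47. The 2 were RCA and LHCA6, in a comparison where DESeq2 called 5.27% of all genes.

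**Figure D3:**
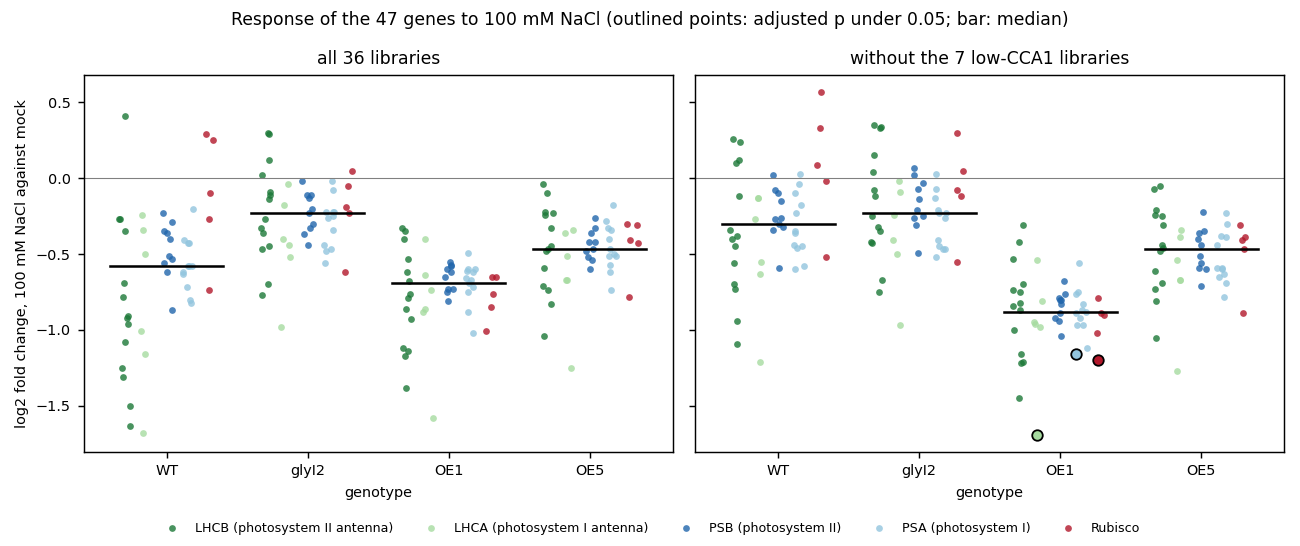
Log2 fold change of each of the 47 genes after 100 mM NaCl against mock, by genotype and role, with all 36 libraries (left) and without the 7 CCA1-low libraries (right). Bars are medians, which lie between −0.69 and −0.23 on the left and between −0.88 and −0.23 on the right, and outlined points have an adjusted p under 0.05 (3 in OE1 on the right).

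Most estimates were below 0. Log2 changes were below 0 in 44 of the 47 in WT, 42 in glyI2, 47 in OE1 and 47 in OE5, with medians of −0.58, −0.23, −0.69 and −0.47 beside all-gene medians of 0.01, −0.05, 0.01 and −0.01. The 4 comparisons have separate mock libraries, but genes of a shared programme are not independent of each other. Without the CCA1-low libraries the medians were −0.30, −0.23, −0.88 and −0.47. Single libraries moved these medians. Without mock replicate 1 the median of glyI2 was 0.31, that of OE1 −0.36 and that of OE5 −0.05, and in OE5 30 of the 47 then stood below 0. Leaving out other libraries took it from −0.93 to −0.32 in WT (without NaCl replicates 2 and 3), to −1.07 in OE1 and −0.69 in OE5 (without mock replicate 3) and from −0.61 to 0.10 in glyI2 (without mock replicate 3 and NaCl replicate 3). The standard error (SE) of a log2 change was as large as 1.53 for CAB2 in each NaCl comparison and as small as 0.17 for LHCA5.

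In the line labelled OE1, RCA fell after NaCl without the CCA1-low libraries (−1.20 ± 0.30 SE, adjusted p = 0.0220, edgeR, 2 libraries per group). RCA (AT2G39730) encodes the chaperone that frees Rubisco of inhibitory sugar phosphates. It stood at 13583, 16917 and 6515 CPM in the 3 OE1 mock libraries and at 7826, 5657 and 5063 after NaCl. The mock and NaCl values overlapped only through mock replicate 3, a CCA1-low library. With all libraries the change was −1.01 ± 0.34 and did not pass (adjusted p = 0.0792, edgeR), and with DESeq2 on all libraries it did (adjusted p = 0.0376).

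PSAH1, a photosystem I subunit near the docking site of mobile antenna, also fell in OE1 without the CCA1-low libraries (−1.16 ± 0.32, adjusted p = 0.0352, edgeR). It stood at 761 and 772 CPM in mock replicates 1 and 2 and at 429 and 264 after NaCl, while the CCA1-low replicate 3 stood at 400 and 362. LHCA1 (AT3G54890), an antenna belt subunit, fell there too (−1.69 ± 0.48, adjusted p = 0.0389, edgeR), from 7829 and 5777 CPM to 2959 and 1268, with the CCA1-low replicate 3 at 500 and 507. The 3 genes were 3 of 47, beside 5.86% of the 20814 genes tested without the CCA1-low libraries and 2.86% in the lower direction. At an unadjusted p under 0.05 there were 31 of 47 in OE1 in that fit, all lower, where 22.0% of all genes passed that threshold in either direction. The counts were 2 in WT, 0 in glyI2 and 6 in OE5, where 20.1%, 22.4% and 18.2% of all genes did.

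In the other genotypes the same genes gave values on the same side without passing. RCA gave −0.52 ± 0.28 in WT, −0.55 ± 0.30 in glyI2 and −0.89 ± 0.30 in OE5 without the CCA1-low libraries, with adjusted p = 0.312, 0.288 and 0.0941 (edgeR). LHCA1 gave −1.21 ± 0.44, −0.97 ± 0.47 and −1.27 ± 0.47, with adjusted p = 0.108, 0.225 and 0.129 (edgeR). In WT, LHCA1 stood at 5251, 5483 and 5633 CPM in mock and at 2097, 2594 and 422 after NaCl, the last in a CCA1-low library, with no overlap.

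Within roles, LHCA1 had the lowest estimate of the 6 LHCA genes and CAB3 that of the 14 LHCB genes in all 4 genotypes, with and without the CCA1-low libraries. RCA had the lowest of the 5 Rubisco genes in the same way. CAB3 (AT1G29910) gave −1.63 ± 1.12 in WT, −0.77 ± 1.09 in glyI2, −1.38 ± 1.11 in OE1 and −1.04 ± 1.10 in OE5 with all libraries, none of which passed (adjusted p = 0.478, 0.756, 0.604 and 0.737, edgeR). Its neighbour CAB2 gave −0.35, 0.30, −0.40 and −0.10 with an SE of 1.53.

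Genes around the photosystems changed in small numbers after NaCl. CHLI2, a subunit of magnesium chelatase in chlorophyll synthesis, fell in all 4 genotypes with all libraries, by 0.88 ± 0.20 in WT, 0.83 ± 0.20 in glyI2, 0.74 ± 0.20 in OE1 and 0.70 ± 0.20 in OE5 on the log2 scale (adjusted p = 0.00569, 0.00842, 0.0260 and 0.0336, edgeR). With the 29 libraries alone it passed in WT, glyI2 and OE5 and not in OE1 (−0.71 ± 0.24, adjusted p = 0.0809). OHP1, a single-helix antenna-like protein, fell in WT (−1.11 ± 0.27, adjusted p = 0.00828), glyI2 (−1.04 ± 0.27, adjusted p = 0.0131) and OE1 (−0.90 ± 0.26, adjusted p = 0.0407). OHP1 passed in OE5 as well without the CCA1-low libraries (−0.86 ± 0.23, adjusted p = 0.0263). PORB, a light-dependent protochlorophyllide reductase, rose in WT (1.20 ± 0.24, adjusted p = 0.00161), and without those libraries in glyI2 too (0.82 ± 0.25, adjusted p = 0.0493). PAO, which opens the chlorophyll ring during breakdown, rose in WT (0.72 ± 0.20, adjusted p = 0.0276), glyI2 (0.66 ± 0.20, adjusted p = 0.0460) and OE1 (0.69 ± 0.20, adjusted p = 0.0450). In the 29 libraries PAO passed in WT and not in glyI2 (0.65 ± 0.20, at the threshold) or OE1 (0.59 ± 0.20, adjusted p = 0.0798). Of the 6 tested genes of dark response and chlorophyll breakdown, 2 were called higher and 1 lower in WT and in glyI2 with all libraries. In OE1 and in OE5 1 was higher and 1 lower. The list medians were −0.15, −0.09, −0.01 and 0.44 in WT, glyI2, OE1 and OE5. Without the CCA1-low libraries 2, 0, 0 and 1 were higher and 0, 1, 1 and 0 lower.

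By list, chlorophyll synthesis had 1 of 24 genes higher and 2 lower in WT, and 2, 1 and 2 lower in glyI2, OE1 and OE5. The same list had, without the CCA1-low libraries, 1 higher and 2 lower in WT and in glyI2, 0 in OE1 and 2 lower in OE5. Of 15 Calvin cycle genes other than Rubisco, SBPASE fell in glyI2 (−0.71 ± 0.21, adjusted p = 0.0317) and OE5 (−0.72 ± 0.21, adjusted p = 0.0360) and none passed in WT or OE1 with all libraries. In the fit without the CCA1-low libraries 1, 1, 3 and 2 Calvin cycle genes fell in WT, glyI2, OE1 and OE5, SBPASE among them in each (−0.66 ± 0.18, −0.79 ± 0.19, −0.70 ± 0.19 and −0.92 ± 0.19, adjusted p = 0.0262, 0.0145, 0.0348 and 0.00640, edgeR). None of the 14 genes of electron transport and ATP synthase passed in any genotype in either fit (edgeR; with all libraries 2, 1, 6 and 5 at an unadjusted p under 0.05). Of 11 root cell markers, CASP1 fell in glyI2 (−1.11 ± 0.34, adjusted p = 0.0391) and none passed elsewhere (3, 5 and 3 at an unadjusted p under 0.05 in WT, OE1 and OE5). Once the CCA1-low libraries were left out, CASP1 did not pass in glyI2 (−1.02 ± 0.46, adjusted p = 0.188), and SHR fell in OE1 (−1.08 ± 0.31, adjusted p = 0.0403). Their summed level was 157 to 184 CPM in WT mock and 118 to 171 after NaCl, and its part in the results was not tested. Of the 15 clock genes none passed after NaCl with all libraries (edgeR; 1, 0, 0 and 0 at an unadjusted p under 0.05 in WT, glyI2, OE1 and OE5). LNK2 fell in OE1 without the CCA1-low libraries (−1.28 ± 0.37, adjusted p = 0.0457).

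The second comparison asked what 200 µM MG did. In WT no gene of the 47 passed with all libraries (edgeR; 0 at an unadjusted p under 0.05, and 0 with DESeq2), where 10.7% of all genes tested were called. Of the 47 estimates 46 were above 0, with a median of 0.24 beside 0.00 over all genes, and LHCB1.4 (0.54 ± 1.22) and LHCA5 (−0.03 ± 0.17) were the highest and lowest. One library carried much of this, since without WT MG replicate 2 the split was 28 above and 19 below, with a median of 0.04. None passed in OE1 or OE5 either, where 9.79% and 8.82% of all genes were called, with 0 at an unadjusted p under 0.05 and 0 with DESeq2 in both. Their medians were 0.32 and 0.40 with all libraries and −0.12 and 0.13 without the CCA1-low libraries, which in both lines include mock replicate 3. Without mock replicate 1 both medians were 0.72.

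**Figure D4:**
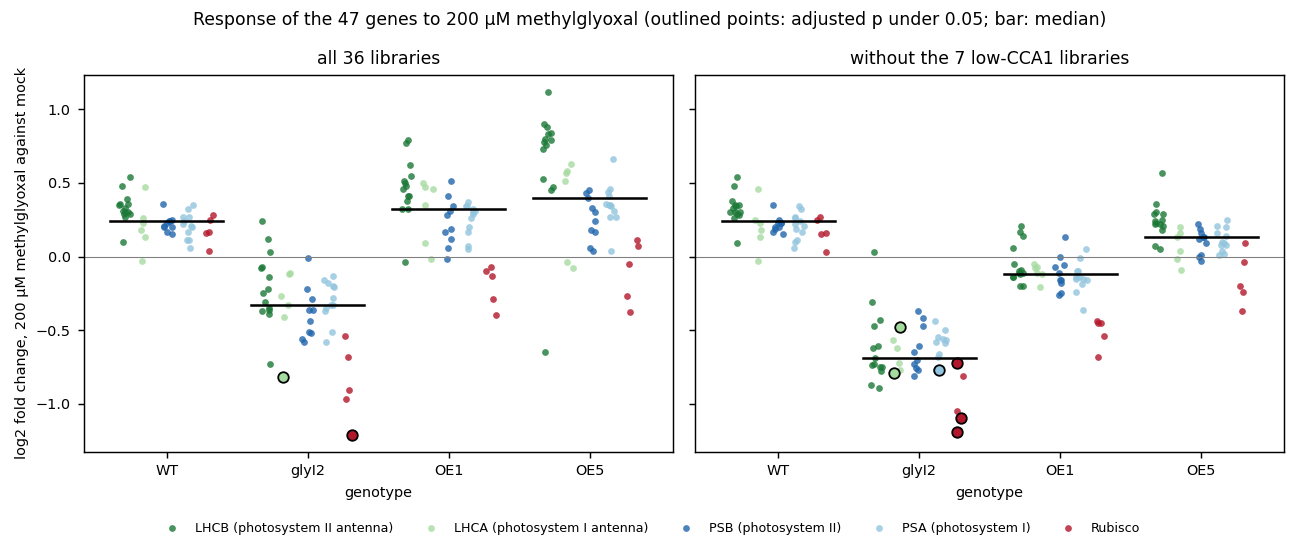
Log2 fold change of each of the 47 genes after 200 µM methylglyoxal against mock, by genotype and role, with all 36 libraries (left) and without the 7 CCA1-low libraries (right). Bars are medians. In glyI2 they lie at −0.33 (left) and −0.69 (right), with 2 and 6 outlined points that have an adjusted p under 0.05.

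In glyI2, 2 of the 47 passed with all libraries, both lower, in a comparison that called 29.2% of all genes tested and 14.8% in the lower direction. LHCA6 (AT1G19150) stood at 182, 168 and 173 CPM in mock and at 86.0, 88.7 and 121 after MG, with no overlap, a fall of 0.82 ± 0.23 on the log2 scale (adjusted p = 0.00828, edgeR). RBCS1B stood at 1487, 1796 and 1550 CPM in mock and at 705, 656 and 721 after MG, again with no overlap, a fall of 1.21 ± 0.39 (adjusted p = 0.0199, edgeR). In WT the same genes overlapped between mock and MG, with LHCA6 at 163, 179 and 144 CPM against 168, 251 and 162, and RBCS1B at 1238, 1576 and 775 against 1080, 2068 and 850.

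Without the CCA1-low libraries, which here remove mock replicate 3, 6 of the 47 passed in glyI2, all lower, beside 30.2% of all genes in either direction and 13.7% lower. They were LHCA6 (−0.79 ± 0.27, adjusted p = 0.0291), RBCS1B (−1.19 ± 0.41, adjusted p = 0.0316), LHCA5 (−0.48 ± 0.17, adjusted p = 0.0376), RBCS3B (−1.10 ± 0.40, adjusted p = 0.0420), PSAH1 (−0.77 ± 0.29, adjusted p = 0.0458) and RCA (−0.72 ± 0.27, adjusted p = 0.0492), all from edgeR. The median of the 47 in glyI2 was −0.33 with all libraries and turned to 0.24 without mock replicate 1. In the fit blocked on the replicate number it was −0.15, with 17 of the 47 above 0 against 3 without the block. With all libraries and without the CCA1-low libraries, both unblocked, the share of the 47 called was below that of all genes.

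Both NDH-linking LHCA genes were thus among the 6, while the belt genes LHCA1 to LHCA4 had larger errors and did not pass. LHCA5 stood at 140, 119 and 101 CPM in glyI2 mock and at 94.1, 80.5 and 95.3 after MG. Replicate numbers count as pairs in this comparison, since same-numbered libraries deviated together. A fit blocked on that number called 3, RBCS2B passing as well (−0.96 ± 0.36, adjusted p = 0.0375, edgeR). Its replicate effects were shared by all 12 groups, so that fit does not model pairs within glyI2. Replicate 3 was CCA1-low in glyI2 mock and not in glyI2 MG (CCA1 at 0.03 and 5.99 log2 CPM). The share of all genes called in the blocked fit is not given here. The 4 RBCS genes in glyI2 all had lower estimates after MG, and reads of the neighbours RBCS1B, RBCS2B and RBCS3B may be split between near-identical copies.

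Leaving out 1 library of glyI2 changed these calls. Without MG replicate 2 none of the 47 passed, with LHCA6 at −0.73 and adjusted p = 0.0592 (edgeR). RBCS1B was also lost without MG replicate 1 (adjusted p = 0.0516), without MG replicate 3 (0.0612) and without mock replicate 2 (0.0549), at log2 changes of −1.23, −1.20 and −1.13.

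Genes around the photosystems also fell in glyI2 after MG, and their counts stand beside 14.8% of all genes called lower there. Of 24 genes of chlorophyll synthesis 12 fell and 1 rose, with a median of −0.53 beside −0.09 over all genes. HEMC, for porphobilinogen deaminase, fell by 1.12 ± 0.20 on the log2 scale (adjusted p = 8.61e-05, edgeR), HEMB1, for the enzyme before it, by 1.00 ± 0.22 (adjusted p = 0.000816) and CHLD, a magnesium chelatase subunit, by 1.10 ± 0.25 (adjusted p = 0.00119). HEMA2, a glutamyl-tRNA reductase gene, rose by 1.33 ± 0.23 (adjusted p = 5.67e-05).

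Of 15 Calvin cycle genes 8 fell and 0 rose in glyI2 after MG, RPE (ribulose-phosphate epimerase) by 0.65 ± 0.16 (adjusted p = 0.00233) and PGK1 (phosphoglycerate kinase) by 1.05 ± 0.30 (adjusted p = 0.00814). Of 14 genes of electron transport and ATP synthase 3 fell, ATPC1 (the gamma subunit of ATP synthase) by 0.58 ± 0.17 (adjusted p = 0.00817). Of 14 antenna-like, assembly and phosphorylation genes 5 fell, LIL3:1 by 0.83 ± 0.18 (adjusted p = 0.000856). Among 15 tested light and chloroplast regulators 3 fell, GUN1, a chloroplast signalling protein, by 0.85 ± 0.17 (adjusted p = 0.000241) and HY5, a light-signalling transcription factor, by 0.61 ± 0.17 (adjusted p = 0.00611). The counts of 3 of 14 and 3 of 15 are near the share over all genes. Without the CCA1-low libraries these lists had 12, 7, 4, 5 and 3 genes lower.

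In the other 3 genotypes few genes of these lists passed after MG. Chlorophyll synthesis had 0 of 24 called in WT and in OE5 and 1 higher in OE1, HEMA2 (0.80 ± 0.23, adjusted p = 0.0220). HEMA2 passed in WT as well without the CCA1-low libraries (0.62 ± 0.17, adjusted p = 0.0162). The Calvin cycle and electron transport lists had 0 called in the 3 genotypes (edgeR; 0, 0 and 0 and then 0, 1 and 0 at an unadjusted p under 0.05). ELIP1, an early light-induced antenna-like protein, rose in WT (1.55 ± 0.46, adjusted p = 0.0253) and OE1 (1.66 ± 0.46, adjusted p = 0.0165) with all libraries. Without the CCA1-low libraries it passed in WT and not in OE1 (1.62 ± 0.58, adjusted p = 0.0939). PPH, a chlorophyll breakdown enzyme, rose in all 4, by 0.76 ± 0.12 in WT (adjusted p = 4.49e-05), 0.83 ± 0.12 in glyI2 (adjusted p = 6.22e-06), 0.81 ± 0.12 in OE1 (adjusted p = 1.76e-05) and 0.90 ± 0.12 in OE5 (adjusted p = 4.52e-06). Of the 6 tested genes of dark response and chlorophyll breakdown, 1, 2, 1 and 1 were called higher in WT, glyI2, OE1 and OE5 with all libraries. Called lower were 0, 1, 1 and 0, and the list medians were −0.17, −0.46, 0.11 and 0.22.

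Root cell markers moved with MG in every genotype. Of the 11 markers 6 fell in WT, 7 in glyI2, 6 in OE1 and 7 in OE5, and none rose. The count in OE1 was 5 without the CCA1-low libraries, and the other counts were as before. Their summed level was 157 to 184 CPM in WT mock and 59.8 to 78.4 after MG, 119 to 290 and 48.2 to 60.9 in glyI2, 179 to 281 and 79.2 to 82.2 in OE1, and 167 to 232 and 61.0 to 78.2 in OE5. The markers EXPA7, COBL9 and PRP3 were at 0 in 1, 1 and 3 of the 36 libraries. The part of these markers in the results for the 47 genes was not tested.

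The third comparison set each line against WT under mock. No gene of the 47 passed in glyI2, OE1 or OE5 with all libraries, where 0.0434%, 0.0530% and 0.0386% of all genes were called. At an unadjusted p under 0.05 there were 0, 1 and 0, the 1 being RBCS1B in OE1 (0.91 ± 0.39, adjusted p = 0.525, edgeR), and DESeq2 called 0 in each. Medians of the 47 were −0.16, −0.02 and −0.21 with all libraries and 0.22, 0.45 and 0.06 without the CCA1-low libraries, so their sign depended on those libraries. With RLE scaling the OE1 median was 0.01. The WT mock group has no CCA1-low library, and each of the 3 lines has 1 among its 3.

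CAB1 shows the spread behind those values. It stood at 22306, 23096 and 20634 CPM in WT mock, at 34862, 17710 and 6321 in glyI2 mock, at 37989, 31650 and 8121 in OE1 mock and at 31233, 15515 and 9985 in OE5 mock. The WT values lay within the range of each line.

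Responses were also compared between each line and WT, as differences tested in the same fit. For NaCl no gene of the 47 passed in glyI2, OE1 or OE5, and 0% of all genes were called in each of the 3 (edgeR; 0 of the 47 at an unadjusted p under 0.05, and 0 with DESeq2). For MG in OE1 and OE5 none of the 47 passed either, where 0.00482% of all genes were called in each, with 0 at an unadjusted p under 0.05 and 0 with DESeq2.

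The MG response of glyI2 differed from that of WT in 3.97% of all genes and in 0 of the 47 (edgeR; 2 at an unadjusted p under 0.05, and 0 with DESeq2). All 47 differences were below 0, with a median of −0.56 beside −0.09 over all genes, and without the CCA1-low libraries the median was −0.88, and without glyI2 mock replicate 1 it was −0.04. LHCA6 had the smallest adjusted p, at a difference of −1.08 ± 0.33 (adjusted p = 0.0607, edgeR). RBCS1B had the most negative difference, −1.37 ± 0.55 (adjusted p = 0.182, edgeR). A p above the threshold does not show that the responses of these genes were alike.

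Copies of one family lie in the same library, so the ratio of their counts does not depend on scaling between libraries. The ratios below were picked out after their values were seen and are given without a test. Of 27 pairs of copies within 9 families, 5 had NaCl and mock values that did not overlap in the 29 other libraries, and 0 had MG and mock values that did not overlap. Apart from LHCB2.1 to LHCB2.2, the 5 all paired CAB1 or CAB2 with CAB3 or LHCB1.5, so they are not separate results. How often other gene pairs were apart in this way is not given here, so the count is not read as particular to these copies.

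**Figure D5:**
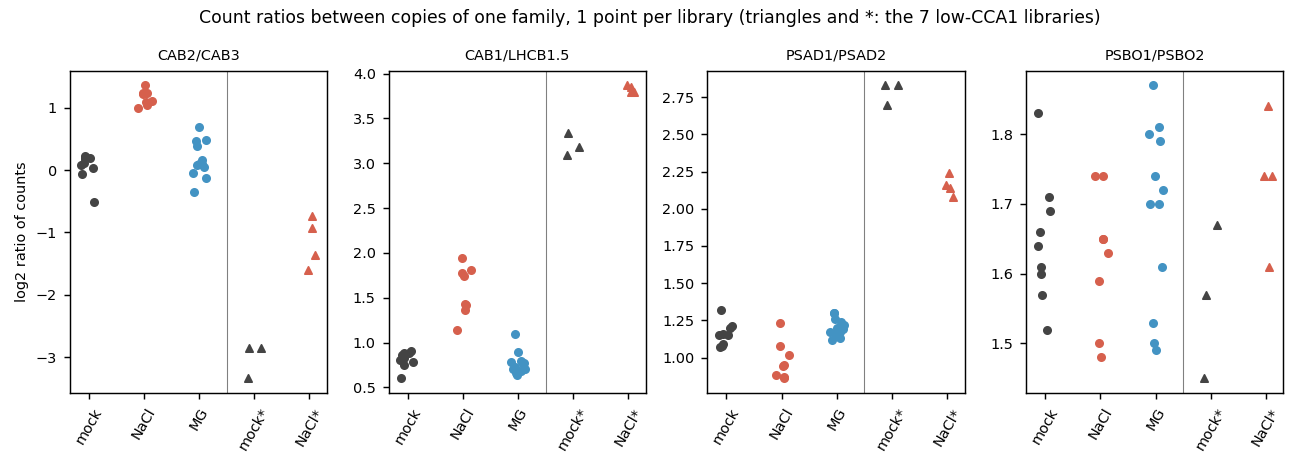
Log2 ratio of counts between copies of a family, 1 point per library, for mock, NaCl and MG in the 29 other libraries (circles) and for mock and NaCl in the 7 CCA1-low libraries (triangles). CAB2/CAB3 and CAB1/LHCB1.5, plotted out of the 5 pairs, are higher after NaCl on both sides of the line, and PSBO1/PSBO2 stays between 1.45 and 1.87 in all libraries.

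The clearest of the 5 was CAB2 to CAB3. Among the 29, its log2 ratio was −0.51 to 0.22 in the 9 mock libraries, 0.99 to 1.36 in the 8 NaCl libraries and −0.35 to 0.69 in the 12 MG libraries. Among the CCA1-low libraries it was −3.34, −2.86 and −2.86 in mock and −0.93, −1.36, −0.73 and −1.60 after NaCl. For this pair the NaCl libraries were above the mock libraries in both sets, at ratios set far apart. LHCB2.1 to LHCB2.2, also among the 5, went opposite ways in the 2 sets, with NaCl above mock among the 29 (0.57 to 0.74 against 0.38 to 0.53) and below mock among the 7 (0.44 to 0.57 against 1.17 to 1.24).

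CAB1 to LHCB1.5, another of the 5, had log2 ratios of 0.60 to 0.90 in mock, 1.14 to 1.94 after NaCl and 0.64 to 1.10 after MG among the 29. In the CCA1-low libraries it was 3.09 to 3.34 in mock and 3.79 to 3.87 after NaCl. As a share of the 5 LHCB1 genes' counts, CAB1 had a median of 42.8% in mock and 53.5% after NaCl among the 29, and held 82.2 to 88.5% in the CCA1-low libraries. PSAD1 to PSAD2 stood apart between the 2 sets of libraries, at 0.86 to 1.32 among the 29 and 2.08 to 2.83 among the 7.

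These copies are alike in sequence, and the sources used here do not say how the authors' counting treated reads that fit several copies. CAB1, CAB2 and CAB3 are neighbours, as are LHCB1.4 and LHCB1.5, LHCB2.1 and LHCB2.2, and RBCS1B, RBCS2B and RBCS3B. A read assigned to the wrong copy would shift these ratios, and that was not tested. RBCS2B had its lowest levels in replicate 3 of WT mock, WT MG, glyI2 MG and OE5 MG, all outside the CCA1-low libraries. It stood at 762 CPM in WT mock replicate 3, against 2076 and 3363 in replicates 1 and 2, and at 1106 in WT MG replicate 3. In OE5 MG replicate 3 it stood at 1164, against 2805 and 2183 in replicates 1 and 2. The glyI2 MG values lay closer together, at 1155 against 1442 and 1315.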

How the data were processed

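The submitters' processing notes name HISAT2 2.0.4, HTSeq and the build TAIR10, and give neither their roles nor the use of strand in the sources used here. The authors deposited whole-number counts and FPKM per gene for each library, and both were used as deposited. Counts were tested with edgeR 4.0.16 (R 4.3.3): TMM scaling, default expression filter (20748 genes left), robust quasi-likelihood fit over all 36 libraries, Benjamini-Hochberg adjustment over all genes tested, and a call at adjusted p under 0.05. SEs come from the F statistic, and log2 CPM used a prior count of 2. The common biological coefficient of variation was 28.3%. Alternatives were DESeq2 1.42.0, RLE scaling, no filter, compared groups only, a replicate block, the CCA1-low libraries left out or as a covariate, and each library left out in turn. Effects of the replicate block were shared by all 12 groups.

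Same-numbered libraries had deviations correlated above 0.1 in 22 of 33 pairs, and in all 3 pairs of 3 comparisons (NaCl in OE5, MG in glyI2 and MG in OE5), where the numbers count as pairing. The labels give no source of pairing.

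The 47 genes and the 8 further lists (116 genes) were chosen with earlier results of these data known. Any of the 47 could be named. Called genes were named up to 10 by adjusted p, otherwise the highest and lowest per role, and up to 4 called genes per further list. Names and neighbours follow a gene table of assembly TAIR10.1, which holds all 47 (39 under the name used here), and no coordinates or sequences are given. The 3 chromatin samples were not analysed here.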

Additional observations from a re-analysis of the deposited data

How the results depend on the processing

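Of the 17 counts of called genes among the 47, 13 stayed at 0 under every alternative run. With the CCA1-low libraries as a covariate the count was 3 for NaCl in OE1, 1 for NaCl in OE5 (RCA), 7 for MG in glyI2 and 1 for the difference in MG response between glyI2 and WT (LHCA6). Without the CCA1-low libraries it was 3 for NaCl in OE1 and 6 for MG in glyI2. DESeq2 gave 2 for NaCl in OE1 (LHCA6 and RCA). With the replicate block it was 1 for NaCl in OE1 (RCA) and 1 for the difference in MG response of glyI2 (LHCA6), where the numbers do not count as pairing. Leaving out each library gave 0 to 4 for NaCl in OE1 (4 without mock replicate 3), 0 to 3 for MG in glyI2 (0 without MG replicate 2) and 0 to 1 for the difference in MG response of glyI2 (1 without WT MG replicate 3). Shares of all genes called in the covariate, block and left-out fits are not given here. A higher count among the 47 in those fits is therefore not read as a gain. The cause of these changes was not tested. RLE scaling, no filter and compared groups only left every count within 1.5 times. No gene changed direction among those followed across the alternatives, but not every estimate named above kept its direction. In WT after NaCl, 1 of the 14 LHCB estimates was above 0 with all libraries and 4 without the CCA1-low libraries. CAB2 was below 0 there with all libraries. Outside the CCA1-low library CAB2 stood at 8320, 6811 and 5899 CPM in WT mock and at 7371 and 9050 after NaCl. In 10 of the 17 comparisons the median of the 47 kept its sign in every alternative other than single left-out libraries, and it turned without the CCA1-low libraries for MG in OE1, for each line against WT in mock, and for the differences in response of OE5 to NaCl (0.10 to −0.21), of OE1 to MG (0.08 to −0.37) and of OE5 to MG (0.15 to −0.10). Same-numbered libraries correlated best with each other in 23 of 33 pairs. With all libraries the SE of CAB2 after NaCl was 1.53, and without the CCA1-low libraries it was 0.45 to 0.50.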
